A study of Canis lupus familiaris with 28 samples.

Results

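Interferon-stimulated genes were followed across 28 primary canine oral malignant melanomas (OMMs), each profiled on 1 canine gene array. The members were a list of 39 genes, and each was read at the Transcript cluster, which is the group of probes for a single transcribed region, whose array annotation symbol was that gene. Of these, 32 were matched, each to 1 Transcript cluster, out of 16295 genes with a symbol of their own. IFIT1, IFIT3, IFI44, CMPK2, XAF1, SAMD9 and SAMD9L were not matched and were not analysed here. No expression value entered the choice of Transcript clusters, since no member had more than 1.

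Interferons are secreted proteins that cells release when they sense foreign or misplaced nucleic acid. They bind receptors on the same or neighbouring cells, whose Janus kinases activate STAT2, which works with IRF9 in a factor that switches on a large set of antiviral genes. The response is known in many tumours, where it can come from the malignant cells or from the immune cells and other cells among them. In a healthy tissue most of these genes are expressed weakly.

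RNA was taken from formalin-fixed, paraffin-embedded (FFPE) biopsies removed before any adjuvant treatment. The 18 metastasising (M) OMMs were from dogs that died or were put to sleep because of proven metastasis, and the 10 non-metastasising (NM) OMMs were from dogs with no metastasis found, no adjuvant therapy and a survival beyond the study's limit. The M OMMs were of the higher clinical stages and most of the NM OMMs of the lower ones, so status and stage cannot be told apart. By breed, 8 OMMs were from Golden Retrievers (4 M and 4 NM), 7 from Cross breed dogs (6 M and 1 NM), 5 from Labrador Retrievers (3 M and 2 NM) and 8 from other breeds. The other M OMMs were from a Border Collie, a Bullmastiff, a Cocker Spaniel and a pair of Dachshunds, and the other NM OMMs were from a Great Dane, an Irish Terrier and a Bouvier des Flandres. Each tumour is named by its group and replicate number, so that M10 is replicate 10 of the M group.

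All values are log2 values, on which a difference of 1 is a factor of 2. Most Transcript clusters were dim, and 74.2% of 32391 had a mean under 2. The share of Transcript clusters above a log2 value of 4 ran from 4.30% to 6.40% between arrays, and the first principal component of all Transcript clusters, which held 34.9% of the variance, is given here with its high end at the arrays with the larger share. Its highest scores were those of NM3 at 89.2, M10 at 88.2, M16 at 82.6, NM2 at 72.9, M8 at 72.2 and M15 at 66.0, while the 7 Cross breed OMMs lay between -93.2 and -37.5. Of the 8 Golden Retriever OMMs, 5 were thus at the high end. The melanocyte markers (10 of 10 measured) had a mean log2 value of 1.66 to 4.01 in the M OMMs and 1.67 to 4.22 in the NM OMMs. These are bulk biopsies, so fewer cells of a type and less RNA per cell cannot be told apart.

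Most interferon-stimulated genes varied little between tumours. Of all 32, 7 had a standard deviation (SD) over tumours above 0.5, 17 had an SD under 0.3, and 19 did not reach a log2 value of 3 in any tumour. The genes with the broad ranges were ISG15, OAS2, MX2, MX1, DDX60, IFI44L and DDX58, and in each of these the highest tumour was M10 or M15, both from Golden Retrievers.

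**Figure D1:**
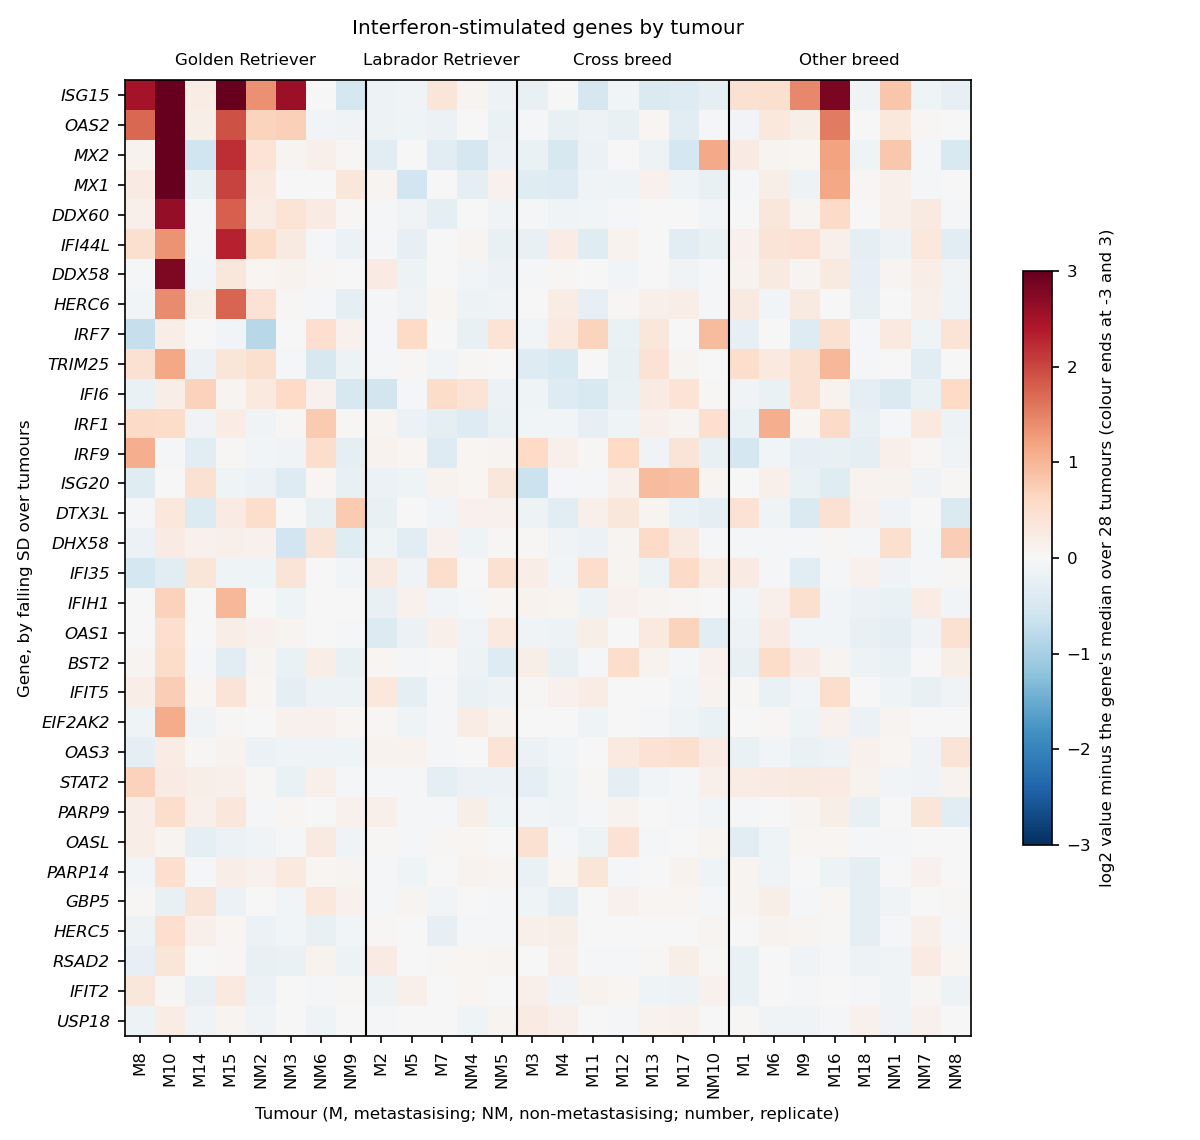
Log2 value of each of the 32 interferon-stimulated genes (rows) in each of the 28 OMMs (columns), minus the median of that gene over the tumours, with the colour scale ending at 3 in either direction. The bright cells lie mostly in the columns of M10 and M15, and ISG15 is also high in M16, NM3, M8, M9 and NM2.

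ISG15 is a small ubiquitin-like protein that is joined to other proteins during the interferon response and is also secreted. Its log2 value ran from 1.21 through a median of 1.82 to 6.05 in the M OMMs, and from 1.19 through 1.65 to 4.28 in the NM OMMs. The highest values were 6.05 in M10, 5.0 in M15, 4.54 in M16, 4.28 in NM3 and 4.20 in M8. NM3 was the single NM OMM among these 5, and the M and NM ranges overlapped. Of the enzymes that handle ISG15, HERC6, which joins it to proteins in the mouse, had a median of 1.41 and reached 3.16 in M15 and 2.82 in M10, with no other tumour above 1.84. HERC5, its neighbour on the chromosome and the joining enzyme in human cells, ran only from 1.24 to 2.0, with the highest value again in M10. TRIM25, a ubiquitin ligase that activates the RNA sensor RIG-I, was 3.08 in M10 and 2.92 in M16 against a median of 1.93, and USP18, which removes ISG15 and dampens the receptor, did not exceed 1.45 in any tumour.

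MX1 and MX2 are dynamin-like GTPases that block virus replication and lie next to each other on the chromosome. MX1 ran from 1.13 through 1.68 to 5.23 in the M OMMs and from 1.44 through 1.72 to 2.04 in the NM OMMs. Its 3 highest tumours were M10 at 5.23, M15 at 3.73 and M16 at 2.86, and the other 25 tumours lay between 1.13 and 2.04. MX2 had the same 3 tumours on top, at 4.98, 4.15 and 3.15, followed by the Cross breed OMM NM10 at 3.09 and the Great Dane OMM NM1 at 2.75. MX1 was 1.49 in NM10 and 1.85 in NM1, so that these tumours were high in MX2 alone of the pair. GBP5, a GTPase induced mainly by interferon-gamma, stayed between 1.0 and 1.68.

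OAS1, OAS2 and OAS3 make the messenger that activates RNase L and lie side by side on the chromosome. OAS2 ran from 0.94 through 1.22 to 4.61 in the M OMMs and from 1.06 through 1.28 to 1.97 in the NM OMMs. Its highest tumours were M10 at 4.61, M15 at 3.17, M8 at 2.99 and M16 at 2.81, all M OMMs, and the next was NM3 at 1.97. OAS1 reached 2.24 and OAS3 reached 2.27, both in the Cross breed tumour M17, in which OAS2 had its lowest value of 0.94. For OAS1 the next tumour was M10, at 2.07 against a median of 1.57. Values of different Transcript clusters are not comparable as levels. The values in M17 say only that the genes did not have their extremes in the same tumours. The related OASL ran from 1.16 to 1.95 and the exonuclease ISG20 from 1.41 to 3.02, with its highest value in M13, a Cross breed OMM.

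Of the RNA sensors, DDX58, which encodes RIG-I, was 4.17 in M10 and no more than 1.70 in any other tumour. DDX60, a helicase that has been linked to RIG-I signalling, was 4.02 in M10 and 3.18 in M15, and the next tumour was M16 at 1.96. IFIH1, which encodes the sensor MDA5, was 2.41 in M15 and 2.12 in M10 against a median of 1.43. EIF2AK2, the kinase PKR that halts translation on double-stranded RNA, was 2.52 in M10 and at most 1.65 elsewhere. DHX58, a regulator of these sensors, had its highest value in another tumour, 2.29 in NM8. In M15, DDX58 was 1.70, so this gene was high in M10 alone.

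The transcription factors of the pathway had their highest values in other tumours. IRF7, which amplifies interferon-alpha production, ran from 2.46 to 4.24 with its highest value in NM10. IRF9 and STAT2, partners in the factor that drives these genes, were both highest in M8, at 3.09 and 2.82. IRF1, an early interferon-gamma target, was 2.70 in M6, a Dachshund OMM, and 2.42 in NM6. In M10 the values were 3.49 for IRF7, 1.98 for IRF9, 2.37 for STAT2 and 2.16 for IRF1. The medians over tumours were 3.29, 2.01, 2.13 and 1.62, so all but IRF9 were above their median in M10. None of the 4 was highest there.

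Of the remaining effectors, IFI44L, which lies beside IFI44, was 3.82 in M15 and 2.87 in M10, followed by 2.06 in NM2 and 2.01 in M8. IFI6, a mitochondrial and endoplasmic reticulum protein, ran from 1.80 to 3.02 with no tumour apart from the rest. IFIT2 and IFIT5, of a family that binds viral RNA, reached 1.55 in M8 and 2.01 in M10. RSAD2, which encodes viperin and is among the strongly induced genes in most interferon responses, was highest in M10, at 1.72 against a median of 1.35. BST2, the tethering protein tetherin, did not exceed 1.94. PARP9, its partner DTX3L and the nearby PARP14 reached 2.08 in M10, 2.54 in NM9 and 1.91 in M10.

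**Figure D2:**
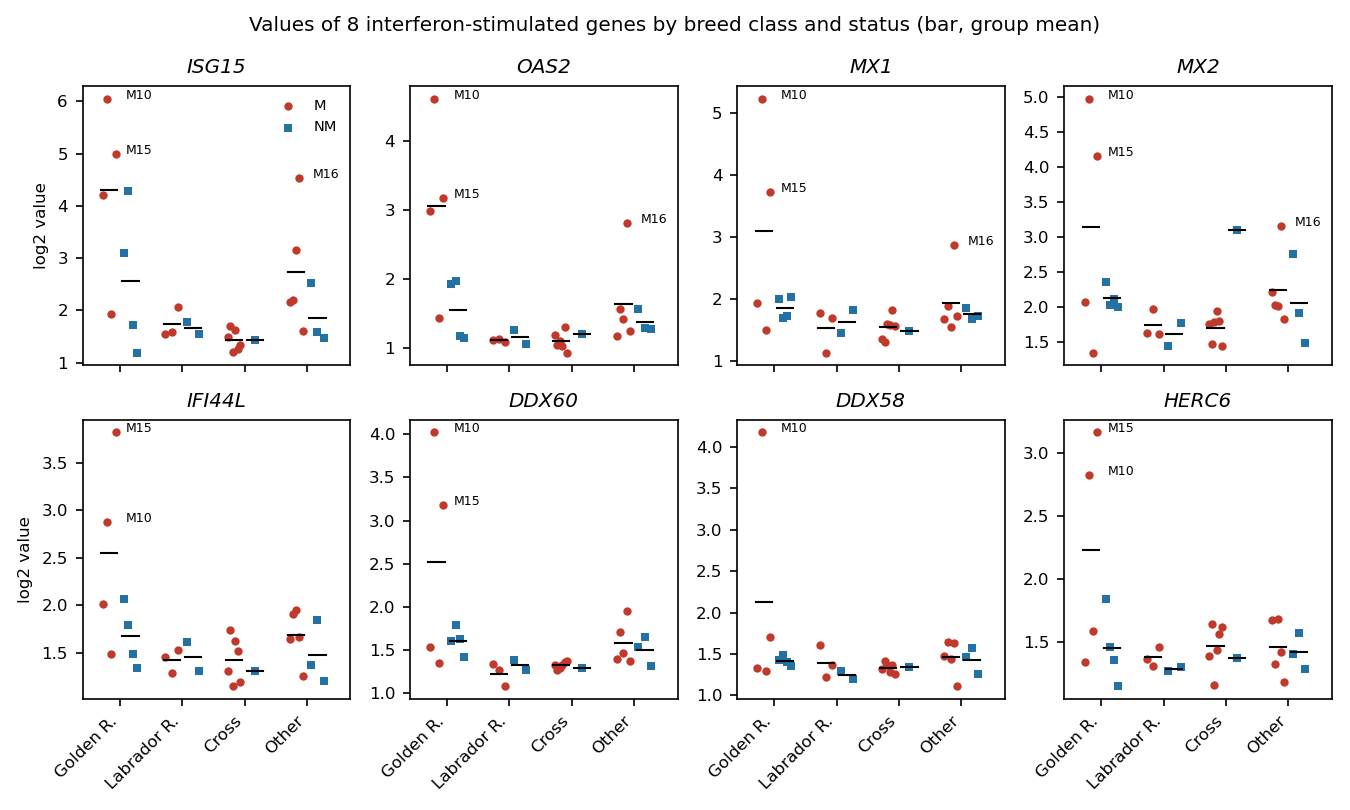
Log2 values of 8 interferon-stimulated genes with a broad spread over tumours, by breed class (horizontal) and metastatic status (marker), with 1 point per tumour and an axis of its own for each gene. The high points of ISG15, MX1 and MX2 are mostly Golden Retriever OMMs and the Bullmastiff OMM M16.

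Counted by tumour, 10 of the 32 genes were more than 1 log2 unit above their own median in M10, against 7.42% of all Transcript clusters in that tumour. These were ISG15 (by 4.34), MX1 (3.53), OAS2 (3.35), MX2 (3.03), DDX58 (2.81), DDX60 (2.64), HERC6 (1.41), IFI44L (1.35), TRIM25 (1.15) and EIF2AK2 (1.10). In M15 the count was 7 of 32, against 5.12% of Transcript clusters, in M16 it was 4, against 6.78%, and in M8 it was 3, against 5.67%. In NM3, which had the highest score on the first component, it was 1, against 7.33%, and in NM2 it was 1, against 5.87%. M6, M9 and NM10 had 1 each, against 2.27%, 3.7% and 3.23%, and the other 19 tumours had 0. M10 held the highest value of 13 of the 32 genes, against 5.9% of all Transcript clusters. NM3 and NM2 lay at the same end of the component as M10 and M15, and the 1 gene counted in each was ISG15. The part of the component in these counts was not tested.

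**Figure D3:**
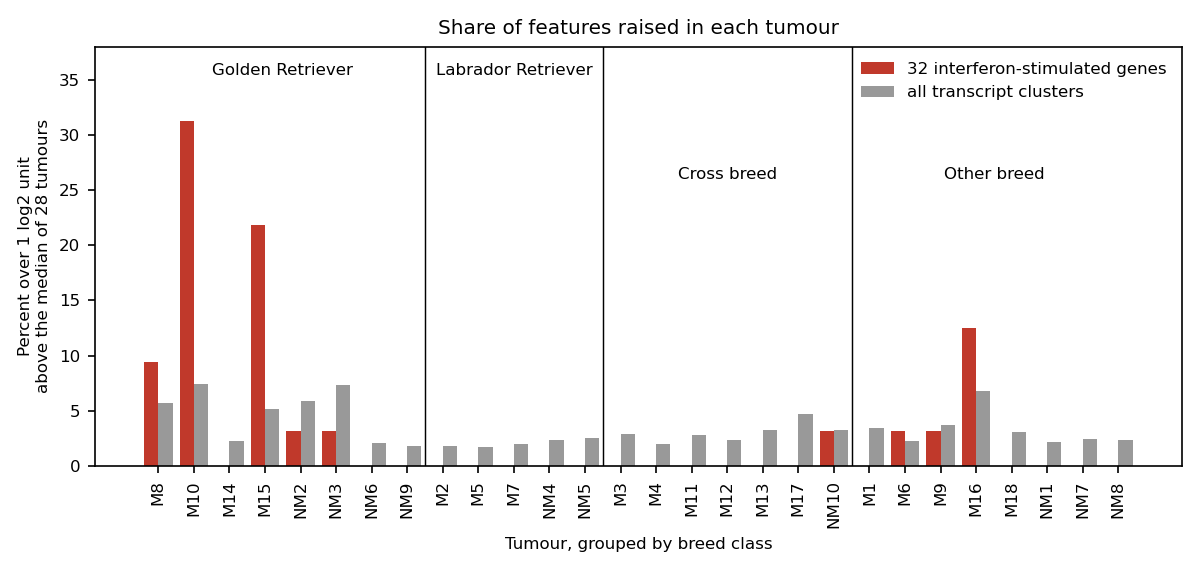
Percentage of the 32 interferon-stimulated genes, and of all Transcript clusters, that were more than 1 log2 unit above their median over tumours, for each of the 28 OMMs. M10 (31.2% of the genes), M15 (21.9%), M16 (12.5%), M8 (9.4%) and, narrowly, M6 (3.1%) exceed the percentage of all Transcript clusters on the same array. NM3 and NM2 do not.

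Markers of other cell types are given beside this. Of 8 oral epithelium markers 7 were measured, and their mean log2 value was 4.62 in M15, 3.85 in M16 and 3.55 in M10, but also 3.87 in NM3, 3.85 in M14 and 3.41 in NM2. KRT5, a keratin of basal epithelium, was 6.87 in M15, 6.68 in M10, 6.23 in M16 and 6.73 in NM3 against a median of 2.25, while CRNN and TP63 stayed at 2.0 or below in these 4 tumours. Of 12 measured T and NK cell markers the mean was 1.98 in M10 and 1.64 in M15 against a median of 1.72. It ran from 1.48 to 2.13 over all tumours, and only NM7 was above M10. CCL5, a chemokine that T cells and infected cells release, was highest in M10 at 4.22. Plasmacytoid dendritic cells are the professional interferon-alpha producers. The mean of their 5 measured markers was 1.61 in M10 and 1.83 in M15 against a median of 1.71. TLR7, which is among the 5, was at its lowest value of the 28 tumours in M10, at 0.986, but the next was close, at 0.995. Of 9 measured macrophage and dendritic cell markers the mean was 2.20 in M10 and 2.23 in M15 against a median of 1.75, and it was highest in NM2 at 2.39. The mean of 5 neutrophil markers was 4.02 in M10 and 4.28 in M15, the highest of all, against a median of 3.13, and 4.26 in M14, which had 0 genes more than 1 log2 unit above their median. The means of the 6 endothelial markers were 2.21 and 2.62 in M10 and M15 against a median of 2.02, and those of the melanocyte markers were 3.86 and 2.19 against 2.39. The 8 fibroblast markers gave 2.95 and 3.65 against 2.88, and the 7 measured B and plasma cell markers gave 1.98 and 1.78 against 1.99. The part of these cells in the result was not tested, except that the epithelial mean was used as a covariate as described below.

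M and NM OMMs were compared to ask whether the expression of these genes differed with metastasis. None of the 32 genes passed an adjusted p of 0.05 in limma, and nor did any of the 32391 Transcript clusters (0%), the smallest adjusted p being 1. At an unadjusted p under 0.05 there was 1 gene, IFIT5, against 2.55% of all Transcript clusters, and the methods' t-test, run here with Benjamini-Hochberg adjustment over every Transcript cluster in place of the study's permutation adjustment over its detected ones, gave 0 calls among the 32. The estimate was higher in the M OMMs for 22 genes and lower for 10, with a median of 0.05, against 50.4% higher and a median of 0.00072 over all Transcript clusters. Of all pairs of an M and an NM OMM, the M OMM was the higher in 58.3% for ISG15 and 45.6% for OAS2.

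IFIT5 ran from 1.01 through 1.31 to 2.01 in the M OMMs and from 1.01 through 1.13 to 1.38 in the NM OMMs. The M OMMs included all the tumours above 1.38, but most M values lay within the NM range. The difference was 0.23 ± 0.086 (SE, n = 18 and 10), with an unadjusted p of 0.0122 and an adjusted p of 1 in limma. A two-sided permutation test gave an unadjusted p of 0.00456, and the M OMM was the higher in 81.1% of pairs. This difference was known before the tests were chosen, so these p-values are no independent support. Within Golden Retrievers the difference was 0.47 (exact permutation p = 0.0571, n = 4 and 4) and among the other breeds 0.16. All these values are near the low end of the array's scale.

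The next genes in order of p were TRIM25, with a difference of 0.24 ± 0.15 (SE), HERC5 with 0.09 ± 0.063 and IFIH1 with 0.14 ± 0.10. None of these exceeded the spread between tumours. The lower estimates in M OMMs were no larger, with -0.06 ± 0.071 for PARP14, -0.11 ± 0.15 for IRF7, -0.03 ± 0.065 for GBP5 and -0.06 ± 0.14 for IFI6. The PARP14 value became 0.00034 with breed as a fixed block. The 95% interval of the ISG15 difference ran from -0.60 to 1.44 and that of OAS2 from -0.35 to 0.95, so that sizeable differences in either direction were not resolved with these numbers.

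**Figure D4:**
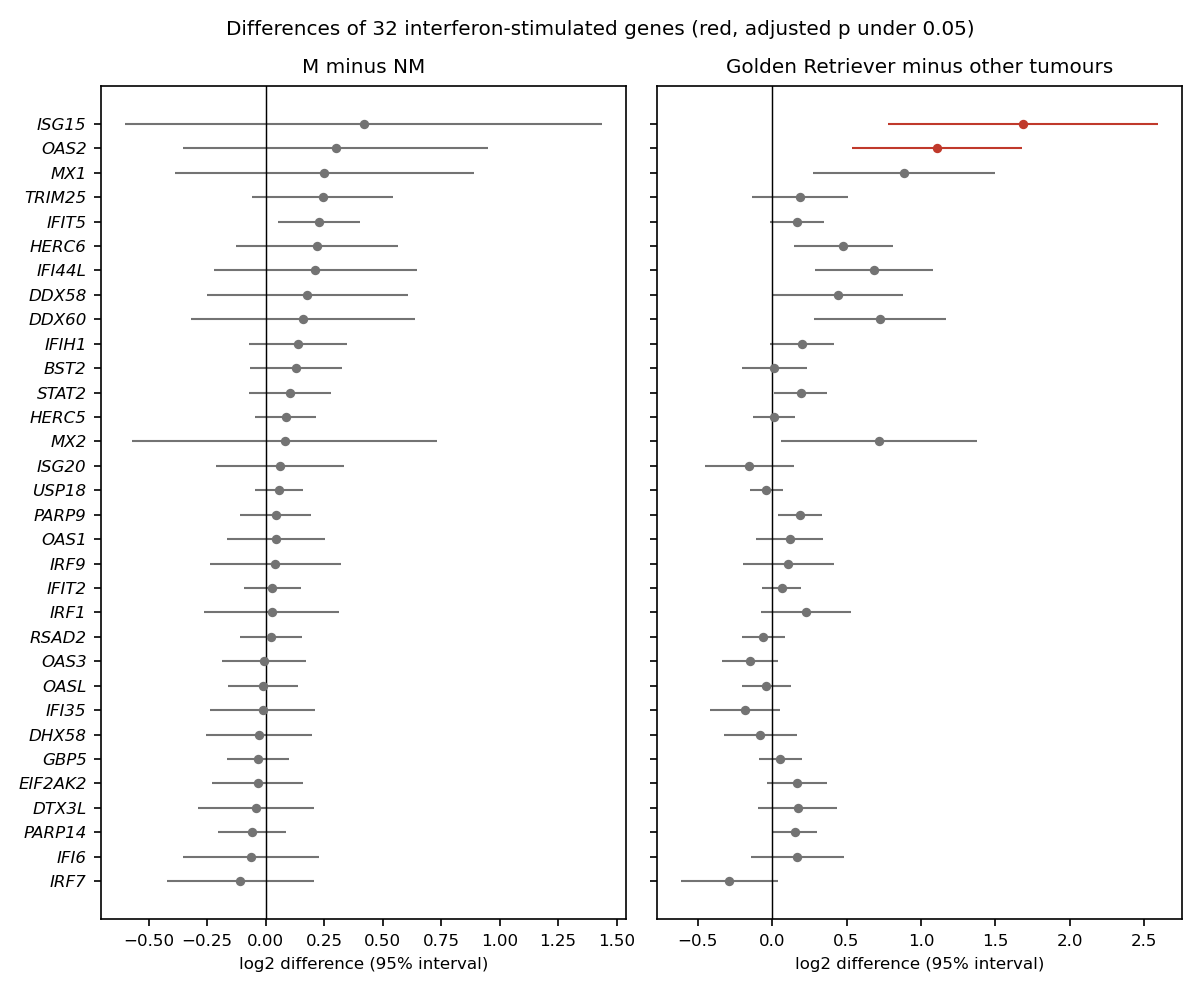
Estimated differences in log2 value with 95% confidence intervals for the 32 genes, M minus NM (left) and Golden Retriever minus other breeds with status in the model (right). Red marks an adjusted p under 0.05, which is reached by OAS2 and ISG15 on the right and by no gene on the left.

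Golden Retriever OMMs were then compared with the other 20, with status in the model. ISG15 ran from 1.19 through 3.65 to 6.05 in Golden Retrievers and from 1.21 through 1.6 to 4.54 in the others. In the 8 Golden Retriever OMMs it was 6.05, 5.0, 4.20 and 1.93 in M10, M15, M8 and M14, and 4.28, 3.09, 1.72 and 1.19 in NM3, NM2, NM6 and NM9. There were thus 5 Golden Retriever OMMs above 3 and 3 at or under 1.93, with both status groups on either side, and the 5 were those at the high end of the first principal component. OAS2 was 4.61, 3.17, 2.99 and 1.43 in the same M OMMs and 1.97, 1.93, 1.17 and 1.15 in the same NM OMMs, against a range of 0.94 to 2.81 in the other breeds. The study also measured the RNA integrity of each biopsy. The breeds of the replicate numbers match the study's order of dogs. If that order holds, the 5 with ISG15 above 3 had more intact RNA than the other 3. RNA integrity was in no fit here, and its part in this split was not tested.

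OAS2 was higher in Golden Retrievers by 1.11 ± 0.28 (SE, limma adjusted p = 0.0427) and ISG15 by 1.69 ± 0.44 (adjusted p = 0.0454). These were the 2 genes called of 32, against 2.54% of all Transcript clusters called in either direction and 1.45% higher. At an unadjusted p under 0.05, 11 of 32 were higher and 0 lower, against 29.4% of all Transcript clusters in either direction and 11.5% higher. IFI44L (0.68 ± 0.19, adjusted p = 0.052), DDX60 (0.72 ± 0.22, 0.0567), MX1 (0.88 ± 0.30, 0.0719) and HERC6 (0.48 ± 0.16, 0.0719) did not pass the threshold. Of the 32 estimates 24 were positive, against 36.5% over all Transcript clusters.

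Both adjusted p-values lay close to the threshold. Leaving out each tumour in turn gave adjusted p-values of 0.00983 to 0.129 for OAS2, which was not called in 17 of 28 fits, and of 0.0107 to 0.143 for ISG15, which was not called in 18 of 28. The estimate was lowest without M10, at 0.76 for OAS2 and 1.3 for ISG15. Neither gene was called without any of M2, M3, M4, M5, M7, M8, M10, M11, M12, M13, M15, M17, NM2, NM3, NM5, NM8 and NM10, and OAS2 alone was called without NM4. The count of calls was 7 without M14, 5 without M16 or NM9 and 4 without NM1 or NM6, with 15.2%, 12.8%, 5.78%, 4.66% and 8.09% of all Transcript clusters called in these fits. With the first principal component as a covariate the estimates were 0.52 for OAS2 and 0.46 for ISG15, with the mean of the oral epithelium markers as a covariate they were 0.66 and 0.77, and no gene and no Transcript cluster was called with either (0%). The epithelial mean was 1.78 to 4.62 with a median of 3.48 in Golden Retrievers against 1.57 to 3.85 with a median of 2.17 in the others. KRT5 was itself higher in Golden Retrievers by 2.42 ± 0.66 (limma adjusted p = 0.0483). It was the 1 called of the 7 measured epithelial markers, against 1.45% of all Transcript clusters called higher. Leaving out 1 tumour at a time ended the KRT5 call in 21 of 28 fits. KRT5 was also not called without both M10 and M15 or with the first principal component as a covariate. Array signal and the epithelial mean thus moved with breed, and their parts in these differences cannot be told apart.

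Whether the M minus NM difference itself depended on the breed was asked with an interaction term. No gene and no Transcript cluster (0%) was called. At an unadjusted p under 0.05 there were 7 of 32 genes, all with a larger M minus NM difference in Golden Retrievers, against 3.07% of all Transcript clusters and 1.57% in that direction. For OAS2 the difference was 1.49 in Golden Retrievers (exact permutation p = 0.0857, n = 4 and 4) and 0.02 in the other breeds, and the interaction was 1.47 ± 0.49 (SE, unadjusted p = 0.00616, limma adjusted p = 0.9996). Leaving out 1 tumour moved the OAS2 value from 0.95, without M10, to 2.01, without M14, and without both M10 and M15 it was 0.64. HERC6 gave 0.70 ± 0.30 and DDX60 gave 0.93 ± 0.41, and without both M10 and M15 these became -0.065 and -0.15.

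Within Golden Retrievers, PARP9 and STAT2 were the 2 genes of 32 in which the 4 M and 4 NM OMMs did not overlap, against 1.84% of all Transcript clusters. STAT2 was 2.82, 2.37, 2.31 and 2.28 in the M OMMs M8, M10, M14 and M15, and 2.28, 2.16, 2.09 and 1.93 in the NM OMMs NM6, NM2, NM9 and NM3, with M15 above NM6 only beyond the decimals given. PARP9, which works in a complex with DTX3L, was 2.08, 1.89, 1.75 and 1.71 in M10, M15, M8 and M14, and 1.69, 1.61, 1.57 and 1.49 in NM9, NM3, NM6 and NM2. Both gave an exact permutation p of 0.0286 (two-sided, n = 4 and 4), the smallest that this design allows, before any adjustment for 32 genes. Any gene without overlap gives this p, so it adds nothing to the lack of overlap by which the 2 genes were picked. In the other breeds the differences were 0.05 for STAT2 and -0.01 for PARP9.

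The 7 Cross breed OMMs had ISG15 values of 1.21 to 1.70, below those of the Golden Retriever OMMs M8, M10, M14, M15, NM2, NM3 and NM6. No gene was called, against 19.4% of all Transcript clusters, and 3 had an unadjusted p under 0.05, against 36.9%. The estimates were -1.41 ± 0.51 for ISG15 (SE, limma adjusted p = 0.0529), -0.75 ± 0.34 for OAS2 (0.11) and -0.20 ± 0.091 for STAT2 (0.114). With the first principal component as a covariate the ISG15 and OAS2 values turned to 0.64 and 0.38, and these 7 tumours are all at the low end of that component. The 5 Labrador Retriever OMMs gave 0 calls, as did all Transcript clusters (0%), and 2 genes, against 5.41% of all Transcript clusters, had an unadjusted p under 0.05. These were IRF1 at -0.35 ± 0.17 and STAT2 at -0.21 ± 0.10 (unadjusted p = 0.0467 and 0.0495 in limma), and MX2 gave -0.56 ± 0.39.

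Next, each of the other 31 genes was set against ISG15 across all 28 tumours, with status in the model, to ask which rose with it. OAS2 rose by 0.60 ± 0.045 (SE) per log2 unit of ISG15, MX2 by 0.49 ± 0.078, MX1 by 0.49 ± 0.075, DDX60 by 0.38 ± 0.053 and IFI44L by 0.33 ± 0.052. DDX58 rose by 0.27 ± 0.061, HERC6 by 0.23 ± 0.048 and TRIM25 by 0.20 ± 0.041, and the limma adjusted p of these 8 was at most 0.000965. In all, 14 of 31 genes were called, 13 rising and 1, IFI35, falling. This count has to be read against 50% of all Transcript clusters called in either direction, 17.9% rising and 32.1% falling. EIF2AK2, IFIT5, PARP9, IFIH1 and STAT2 made up the 13. Without M10 the DDX58 slope was 0.07. ISG15 itself rose by 0.21 ± 0.023 per 10 units of the first principal component, with which 15 of the 32 genes were called, 11 rising, against 57.9% of all Transcript clusters.

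With the first principal component as a covariate, 3 of 31 genes were called, OAS2 (0.74 ± 0.086, adjusted p = 0.000105), DDX60 (0.57 ± 0.10, 0.0155) and MX1 (0.73 ± 0.14, 0.0256), against 0.127% of all Transcript clusters. At an unadjusted p under 0.05 there were 17 of 31, all rising, against 7.94% in either direction and 5.52% rising. The slope was positive for 28 of 31 genes with a median of 0.14, against a median of 0.0083 over all Transcript clusters. OAS2 had the smallest p of all Transcript clusters in this fit. MX2 (0.69 ± 0.15, adjusted p = 0.0725) and HERC6 (0.39 ± 0.090, 0.0835) did not pass the threshold, and RSAD2, OAS1 and OAS3 had slopes of 0.12, 0.20 and 0.14. Without M10 and M15, the tumours with the largest ISG15 values, 9 of 31 genes were called in the fit without the component, against 41.7% of all Transcript clusters. No fit with the component and without these tumours is given here, so how far its slopes rest on them is not shown.

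**Figure D5:**
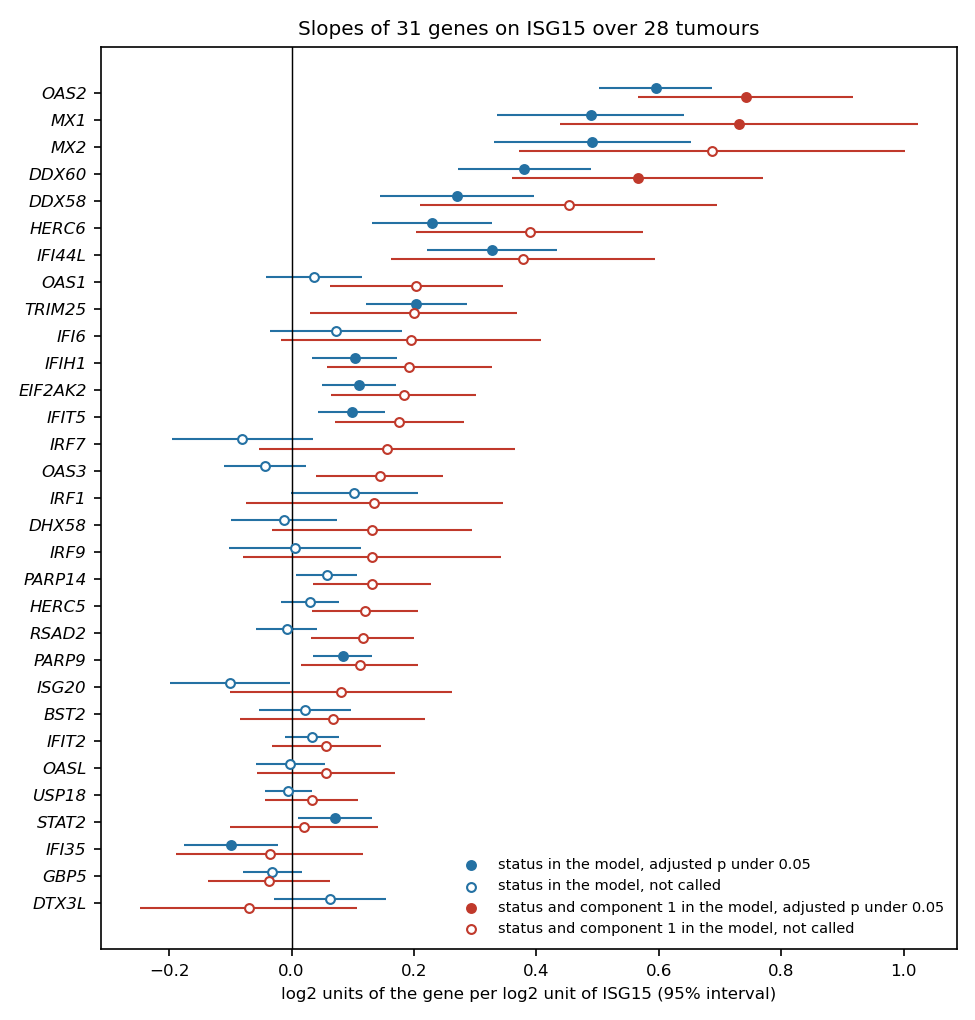
Slope of each of the other 31 genes on the ISG15 log2 value over 28 tumours, in log2 units per log2 unit with 95% confidence intervals, without and with the first principal component as a covariate. Slopes of OAS2, MX1, MX2 and DDX60 lie to the right of the others in both fits, and IFI35 lies to the left of 0 in the first.

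The upstream part of the pathway was read from lists of its other genes. Of 13 ligands and receptors 9 were measured, and none was called between M and NM OMMs. IFNB1, the interferon made first by most infected cells, ran from 0.98 to 1.80 and was 1.19 in M10 and 1.18 in M15 against a median of 1.18. IFNA7, an interferon-alpha, was 1.96 in M10 and 2.23 in M15 against a median of 2.24, and IFNL1 and IFNK were also at or below 1.37 in both. IFNG was 1.0 in M10 and 1.16 in M15 against 1.18. None of the measured interferon transcripts was highest in M10 or M15, and no detection call was at hand for values this low. IFNAR1 was not matched and was not analysed here.

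Of 24 genes of sensing and signalling 19 were measured, with 0 called between M and NM OMMs. TLR7, an RNA sensor of endosomes, was lower in the M OMMs by an estimate of -0.16 ± 0.057 (SE, unadjusted p = 0.00854, limma adjusted p = 1), and ZBP1, TBK1 and ADAR gave -0.11, 0.28 and 0.20. ADAR, which edits double-stranded RNA and has an interferon-driven isoform, was highest in M10 at 3.45 and next in M16 at 3.03, against a median of 1.85. Its slope on ISG15 with the first principal component was 0.40 ± 0.070 (adjusted p = 0.0155). TBK1, the kinase that activates IRF3, was 4.26 in M16 and 2.46 in M10 against a median of 1.42, and JAK2 was highest in M10 at 2.81.

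Of 10 negative regulators 9 were measured and 0 were called between M and NM OMMs, where TRIM21 gave -0.18, SOCS3 0.14, PTPN11 0.26 and PTPN2 0.17. PTPN2, a phosphatase that switches off JAK and STAT proteins, was 3.61 in M10 against a median of 1.62, whereas SOCS1 and SOCS3, inhibitors that interferon itself induces, were 1.33 and 1.54 there, below their medians of 1.44 and 1.74. PIAS1 was highest in M10 at 3.19.

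Of 18 interferon-gamma and antigen presentation targets 12 were measured, with 0 called between M and NM OMMs and estimates of 0.11 for CXCL10, 0.22 for PSMB10, -0.15 for PSMB8 and -0.30 for PSMB9. PSMB9, a subunit of the immunoproteasome, was 4.23 in M10 against a median of 2.40 and 2.14 in M15. CXCL10, a chemokine that interferons induce strongly, was 1.15 in M10 and 1.13 in M15 against a median of 1.18. B2M, the light chain of class I molecules, was 5.70 in M10 and highest in NM3 at 6.20. With ISG15 and the first principal component in the fit, 0 of the 12 were called, with 12 positive slopes.

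Of 26 genes of nucleic acid restriction and related effectors 17 were measured, with 0 called between M and NM OMMs. The 0 covers only the measured genes. The study identified APOBEC3A by the sequence similarity of a Transcript cluster without gene annotation, which matching by symbol does not reach. TRIM22, an antiviral ubiquitin ligase, was lower in the M OMMs by an estimate of -0.33 ± 0.13 (SE, unadjusted p = 0.0184, limma adjusted p = 1), with values of 1.24 to 1.95 in the M OMMs and 1.34 to 3.0 in the NM OMMs, and SAMHD1, TDRD7 and UBE2L6 gave 0.31, -0.08 and -0.15. SAMHD1, which depletes the nucleotides needed for DNA synthesis, was 3.30 in M10, 2.78 in M15 and 2.50 in M16 against a median of 1.37. It was higher in Golden Retrievers by 0.81 ± 0.19 (limma adjusted p = 0.0415), as were SP100 by 0.74 ± 0.20 (0.0484) and LAP3 by 0.74 ± 0.21 (0.0498), which made 3 of 17, against the 1.45% of all Transcript clusters called higher. Leaving out 1 tumour at a time ended these calls in 16, 20 and 19 of 28 fits, and with the first principal component as a covariate the estimates were 0.42, 0.46 and 0.20 and none was called. The slope of SAMHD1 on ISG15 with the first principal component was 0.43 ± 0.088 (adjusted p = 0.0392). NMI, EPSTI1, ZC3HAV1 and TDRD7 were also highest in M10, at 3.47, 2.54, 2.51 and 1.82.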

How the data were processed

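The authors extracted RNA from FFPE biopsies and hybridised it to Canine Gene 1.1 ST arrays. They processed the arrays with Affymetrix Expression Console 1.3 by RMA (quantile normalisation across arrays, log2 transformation and summary per Transcript cluster) and left out arrays with outlying quality metrics. The deposited values are gene-level log2 values of 32391 Transcript clusters in 28 tumours, with no detection calls, so the number of tumours and the signal over background limit precision. A low value therefore has no stated floor.

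Members were matched through the platform's annotation symbols. The members, the lists of other pathway genes and markers, and the tests were chosen with earlier results of these data known, among them the IFIT5 difference. Every comparison was a fit by lmFit and eBayes to all Transcript clusters (limma 3.58.1, R 4.3.3), with Benjamini-Hochberg adjustment over all of them and a threshold of 0.05. Breed comparisons and the regression on ISG15, the member with a mean above the median of all Transcript clusters and the largest SD, had status in the model. Single genes were also compared by two-sided permutation of the difference in means with 100000 resamples (SciPy 1.17.1), exact within Golden Retrievers. Script steps across Transcript clusters were tested on simulated data.

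Genes were named by rule: the 8 with the largest SD among those above the median, the 4 with the smallest p in each direction for M versus NM, up to 6 called (or the 3 with the smallest p) per breed comparison, up to 8 in the regression, IFIT5, and up to 4 of each pathway list. Others were named after their values were seen, for a high value in a tumour or a small p. The alternatives were quantile normalisation, median centring, trend and robust options, array weights, filters on dim Transcript clusters, those with 1 symbol, the first principal component, breed or replicate number in the model, the methods' t-test, MX1 as the anchor, and leaving out tumours. A choice between Transcript clusters of a gene was planned but could change no member, since each had 1, and was not counted. No per-sample column was left unused. Gene order on chromosomes was taken from RefSeq (UU_Cfam_GSD_1.0), and no sequence is printed.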

Additional observations from a re-analysis of the deposited data

Results flagged for a closer look

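The highest and lowest tumour of each group of 4 to 10 was set against the rest by Dixon's ratio, for 32 genes over 128 groups, of which 7 stood out. Chance alone would give about 1 in 20, and 7 of 128 is close to that share. The 7 are therefore listed only as values to check. In 3 of them the tumour was M10 among the 8 Golden Retriever OMMs: DDX58 was 4.17 with the next at 1.70, EIF2AK2 was 2.52 with the next at 1.55, and OAS1 was 2.07 with the next at 1.77. Among the Cross breed OMMs, MX2 in NM10 was 3.09 with the next at 1.93, and PARP9 in M12 was 1.66 with the next at 1.54. OASL in NM6 was the highest of the 10 NM OMMs, at 1.77 with the next at 1.59. IRF9 in M7 was the lowest of the 5 Labrador Retriever OMMs, at 1.63 with the next at 2.06.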

How the results depend on the processing

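No gene was called between M and NM OMMs, for Labrador Retrievers or for the interaction under any alternative run, including each tumour left out in turn. The Golden Retriever count of 2 became 0 with quantile normalisation (0.321% of all Transcript clusters called), with the first principal component or the oral epithelium markers as a covariate, without Cross breed tumours (0% in each) and without both M10 and M15 (0.00617%), 1 with trend and robust options (0.744%) and 7 with array weights (22.2%), and ran from 0 to 7 with 1 tumour left out. The Cross breed count was 0 in the main fit, against 19.4% of all Transcript clusters. It became 1 with quantile normalisation, with trend and robust options and with either filter on dim Transcript clusters. With 1 tumour left out it ran from 0 to 1, being 1 without M2, M5, M7, M14 or M18 (ISG15) or NM10 (STAT2). The shares of all Transcript clusters in these other Cross breed fits are not given here, so a count of 1 is not read as a result. The count of 14 in the regression on ISG15 became 6 with Transcript clusters of above-median mean (62.2% of those called), 5 with the brightest ones (64.3%), 3 with the first principal component (0.127%), 2 with that component and the epithelial markers (0.111%), and 9 without M10 and M15 (41.7%), which are also the 2 tumours farthest from the ISG15 median. With MX1 in place of ISG15 it was 13, against 11.8%. It ran from 9, without M10 (45.1%), to 15 with 1 tumour left out. The filters test fewer Transcript clusters, and the cause of the other changes was not tested. The epithelial covariate and the fits without both M10 and M15 were chosen after seeing the data.

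Single genes reversed 5 times. PARP14 in M versus NM became 0.00034 with breed as a fixed block, ISG15 and OAS2 in Cross breed OMMs became 0.64 and 0.38 with the first principal component, and HERC6 and DDX60 in the interaction became -0.065 and -0.15 without both M10 and M15. Of the other values for single genes, 342 kept direction and side of the threshold, 31 lost their call and 5 gained one.

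Replicate numbers do not pair the tumours: deviations of same-numbered M and NM OMMs correlated between -0.41 and 0.12 over 10 pairs, with 4 over 0.1 and 0 closest to their own number. With the replicate number as a block, M versus NM gave 0 calls and Golden Retriever versus other breeds gave 0.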
